A study of Mus musculus with 2 samples.

Results

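The removal of dying cells was described here through 10 genes: the receptor kinases Mertk, Axl and Tyro3, their ligands Gas6 and Pros1, the phosphatidylserine receptor Timd4, the bridging protein Mfge8, the scavenger receptor Cd36, and the surface pair Cd47 and Sirpa. They were chosen by symbol, and all 10 were found among the 43346 genes of the tables. The samples were whole spleens of 2 newborn mice, 1 spleen per pup, of strain B6NCrl at postnatal day 0 and from the same pregnancy. The labels name no treatment and no genetic change, and sex was not collected. Replicate 1 came from pup 2 and replicate 2 from pup 1, and together they form 1 group with n = 2. Both samples carry a single donor identifier although their descriptions name separate pups.

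A dying cell moves the lipid phosphatidylserine to its outer surface, where phagocytes read it as an eat-me signal. Gas6 and protein S, the product of Pros1, bind that lipid and dock onto Mertk, Axl and Tyro3, known together as the TAM receptors, while Mfge8 links it to integrins on the phagocyte and Timd4 binds it directly. Cd36 takes up oxidised lipids and takes part in engulfment, and Cd47 on a healthy cell engages Sirpa on the phagocyte to hold engulfment back. In the spleen, macrophages use this machinery to clear aged blood cells and the nuclei shed by red cell precursors.

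Libraries were made from 10 ng of RNA longer than 200 nt and held 33122187 estimated counts in replicate 1 and 32162543 in replicate 2. Adult globins took 27.8% and 25.7% of all TPM, the length-normalised transcript abundance used for levels below. The tissue label was read against spleen markers from the macrophage and stromal lists, which were chosen with earlier results known. Spic, the transcription factor of red pulp macrophages, stood at 18.6 and 28.8 TPM, and Tcf21, a factor of splenic stroma, at 114 and 135 TPM. With 1 group there was no contrast between conditions and no test, so differences between the littermates are given as ratios. Their 95% intervals are exact Clopper-Pearson intervals that cover counting error only.

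Cd47 was the most abundant of the 10 genes and Timd4 the least. The mean level of Cd47 was 4.32 times that of Cd36, the next gene, in deposited TPM, but 1.86 and 1.38 times in the 2 libraries when counts were divided by the length of the longest transcript, an alternative chosen after seeing the data. In TPM, as mean ± SD over the 2 libraries, Cd47 stood at 407 ± 51.0 (n = 2), followed by Cd36 at 94.3 ± 10.8, Mfge8 at 66.1 ± 14.6 and Axl at 54.0 ± 10.8. A middle group held Sirpa at 35.9 ± 10.1, Gas6 at 32.7 ± 10.8 and Pros1 at 14.7 ± 2.45 TPM. Mertk at 4.66 ± 0.368, Tyro3 at 3.58 ± 0.764 and Timd4 at 1.69 ± 1.03 TPM closed the order. The order of the 10 levels was the same in both libraries. Mfge8 and Axl were neighbours in that order whose values overlapped between the libraries, and so were Sirpa and Gas6, while the 7 other neighbouring pairs did not overlap. The 10 genes summed to 715 ± 10.7 TPM, or 0.0707% and 0.0722% of all TPM.

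**Figure D1:**
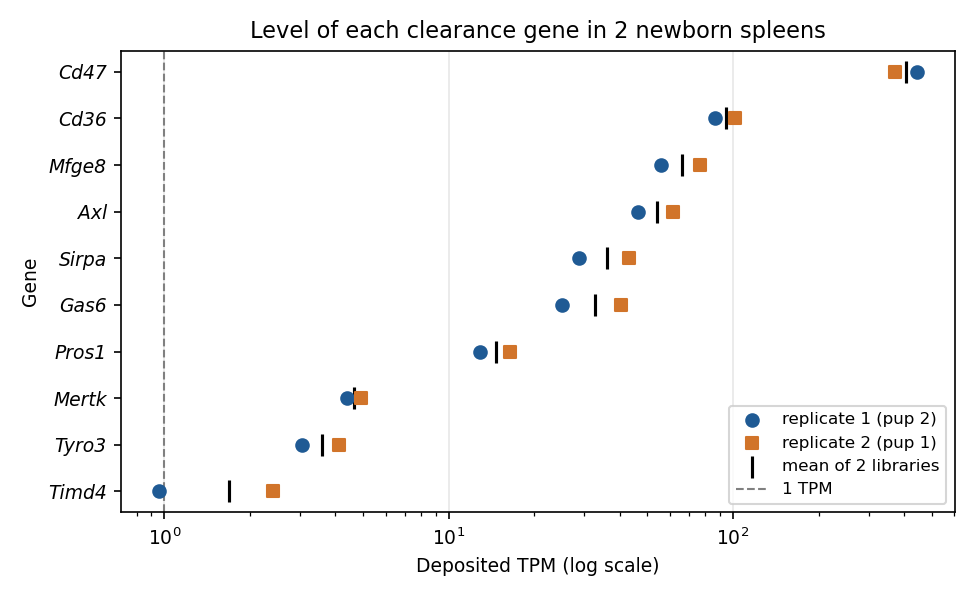
Level of each of the 10 genes in TPM on a log axis, with 1 point per library and the mean of the 2 libraries. Cd47 lies at 443 and 371 TPM, and Timd4 at 0.96 and 2.42 TPM, below the dashed line at 1 TPM in replicate 1.

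Among the 11919 protein-coding genes detected in both libraries, the deposited level of Cd47 lay at percentile 98.2 and that of Cd36 at 90.4. Mfge8 and Axl lay at 86.4 and 83.5, Sirpa and Gas6 at 76.1 and 74.1, and Pros1 at 53.4. Mertk and Tyro3 lay low, at percentiles 23.2 and 17.9. Timd4 was not itself among these detected genes, and 4.87% of them had a lower mean level. Of the 10 genes, 9 reached 1 TPM in both libraries, which 31.0% of all 43346 genes and 55.5% of 21461 protein-coding genes did. Timd4 was the exception, with 0.96 TPM in replicate 1. It lay close to the line, and all 10 genes reached 1 TPM when TPM was rescaled to protein-coding genes, taken without adult globins or computed from the longest transcript.

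Of the 3 receptor kinases, Axl, an inducible kinase that binds Gas6 (chr7:25757273-25788705, minus strand), held most of the transcript pool. It stood at 46.4 TPM in replicate 1 and 61.6 TPM in replicate 2, so the second library was the higher. Mertk, the receptor used by many resting macrophages (chr2:128698956-128802894, plus strand), stood at 4.40 and 4.92 TPM. Tyro3, the receptor best known from the nervous system (chr2:119797733-119818104, plus strand), stood at 3.04 and 4.12 TPM. Axl accounted for 86.2% and 87.2% of the summed TAM receptor TPM, and its level was 10.5 and 12.5 times that of Mertk. With counts divided by the length of the longest transcript, the ratio to Mertk was 6.36 and 8.06 and the share 79.3% and 82.6%. Mertk exceeded Tyro3 by 1.45 and 1.19 times in deposited TPM, and by 1.52 and 1.42 times with longest-transcript TPM. The deposited TPM intervals of the 2 genes overlapped in both libraries. In replicate 1 they ran from 3.92 to 4.80 for Mertk and from 3.18 to 4.71 for Tyro3. The Tyro3 level of 3.04 TPM in that library lay below its own interval. The intervals are therefore not spreads around the levels given above. In posterior mean TPM, averaged over the 2 libraries, Mertk stood at 4.635 and Tyro3 at 4.36.

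The scaled counts of Axl were 1.37-fold higher in replicate 2 (95% interval 1.32 to 1.44). For Mertk, with 545 and 615 estimated counts, the ratio was 1.08 and its interval, 0.964 to 1.22, held 1. Tyro3, with 373 and 449 counts, was 1.16-fold higher in replicate 2 (1.01 to 1.33). The Mertk span holds the antisense gene Gm14011, with 3 and 1 counts, and the small nucleolar RNA gene Gm23172, with 0 in both. Neither overlaps an exon of Mertk. No source used here says whether reads were counted by strand.

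The annotated transcripts of Axl include forms with and without a 27-nt exon segment that encodes 9 residues. It lies at chr7:25773099-25773125 on the minus strand and is shown because it is what separates the coding forms Axl-201 and Axl-202. Capitals mark the segment and lower case the 24 bases on either side in the transcript.
Axl-201: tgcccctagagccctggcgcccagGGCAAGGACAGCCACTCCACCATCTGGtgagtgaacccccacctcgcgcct
Axl-202: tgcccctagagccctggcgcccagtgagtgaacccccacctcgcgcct
Axl-202, which lacks the segment, held 2.14% and 2.21% of Axl TPM, from 118 and 153 estimated counts with posterior SDs of 27.8 and 34.0. Axl-201 held 50.4% and 58.9% of the TPM but 89.4% and 91.4% of the counts. The gap lay with Axl-207, a 455-nt transcript annotated as a retained intron, which held 43.5% and 34.2% of the TPM from 6.60% and 4.54% of the counts. Of its 455 nt, 399 nt are shared with exons of Axl-201 and 56 nt lie outside them.

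Mertk-201 held 82.5% of Mertk TPM in replicate 1 and 100% in replicate 2. The noncoding Mertk-202 made up the remaining 17.5% in replicate 1, from 64.1 estimated counts with a posterior SD of 28.0. Tyro3-201 held 100% and 92.7% of Tyro3 TPM, but 73.1% and 75.3% by posterior mean TPM.

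Both TAM ligands were present, and Gas6 was the more abundant. Gas6, which binds all 3 receptors with highest affinity for Axl (chr8:13465374-13494490, minus strand), stood at 25.1 TPM in replicate 1 and 40.4 TPM in replicate 2. Pros1, which encodes the anticoagulant protein S and serves Mertk and Tyro3 (chr16:62854307-62929346, plus strand), stood at 12.9 and 16.4 TPM. Gas6 exceeded Pros1 by 1.94 and 2.46 times. The 2 ligands summed to 0.707 and 0.804 of the summed TPM of the 3 receptors, but to 1.15 and 1.18 times the receptors with longest-transcript TPM. Which side was in excess thus turned with the length used.

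Gas6 was 1.46-fold higher in replicate 2 (1.38 to 1.55), the ratio nearest below the 1.5-fold line used for calls. Pros1 was 1.15-fold higher there (1.07 to 1.24). The end of Gas6 shares 34 nt of exon with Tmem255b on the opposite strand, which had 25 and 21 estimated counts against 1972 and 2996 for Gas6. Gas6 has 1 annotated transcript in these tables, and Pros1-201 held 99.7% and 99.5% of Pros1 TPM.

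Gas6 and protein S become active only after carboxylation by the vitamin K-dependent enzyme Ggcx, and the TAM receptors are shed from the surface by the proteases Adam17 and Adam10. All 6 genes of the list for ligand maturation and receptor shedding were detected, against 55.5% of protein-coding genes. Of the 6, 0 were 1.5-fold apart, and 7.11% of all genes tested were. Ggcx stood at 4.67 ± 1.10 TPM, lower than both ligands. Vkorc1 and Vkorc1l1, which recycle vitamin K, stood at 61.1 ± 4.42 and 25.7 ± 1.33 TPM. Furin, a proprotein convertase, stood at 6.97 ± 0.877 TPM, and Adam10 at 64.7 ± 1.77 TPM exceeded Adam17 at 13.5 ± 1.14 TPM.

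Timd4, the phosphatidylserine receptor of resident macrophages (chr11:46810800-46844332, plus strand), was the gene with the widest gap between the littermates. It stood at 0.96 TPM in replicate 1, from 63 estimated counts, and at 2.42 TPM in replicate 2, from 149 counts. The scaled ratio was 2.23-fold higher in replicate 2 (1.68 to 3.10). It was the only 1 of the 10 genes at least 1.5-fold apart, against 7.11% of the 15506 genes whose mean count reached 20. Over those genes 4.55% were that much higher in replicate 2 and 2.55% in replicate 1. Timd4 has 1 annotated transcript.

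Mfge8, the secreted bridge between phosphatidylserine and integrins (chr7:79133768-79149060, minus strand), stood at 55.8 TPM in replicate 1 and 76.4 TPM in replicate 2. It was 1.24-fold higher in replicate 2 (1.19 to 1.30). Its level was 58.1 and 31.6 times that of Timd4. The integrin subunits it binds through, Itgav and Itgb3 with Itgb5, were in the list of other engulfment receptors below.

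Mouse Mfge8 is known in a long and a short form that differ by a stretch rich in proline and threonine. The long form carries a cassette exon of 111 nt at chr7:79143278-79143388 on the minus strand, which encodes 37 residues and is 45.0% C. It is shown because its reads divide the 2 forms. Capitals mark the cassette and lower case the 24 bases on either side in the transcript.
Mfge8-201: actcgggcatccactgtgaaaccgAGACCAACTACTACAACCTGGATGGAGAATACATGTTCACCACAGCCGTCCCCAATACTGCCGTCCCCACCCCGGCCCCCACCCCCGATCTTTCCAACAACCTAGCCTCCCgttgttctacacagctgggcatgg
Mfge8-202: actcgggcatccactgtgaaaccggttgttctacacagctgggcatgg
The short form Mfge8-202 held 89.7% and 87.8% of Mfge8 TPM, a mean of 88.7% ± 1.33 (n = 2). The long form Mfge8-201 held 10.3% and 12.2%, from 367 and 562 estimated counts with posterior SDs of 53.1 and 70.1. The short form thus led in both libraries, and the shares differed little between them. The length of Mfge8-202 in the deposited tables, 2014 nt, differs from the 2008 nt of the annotation used for names.

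Cd36, the scavenger receptor (chr5:17781690-17888801, minus strand), stood at 86.7 TPM in replicate 1 and 102 TPM in replicate 2. It had the smallest ratio of the 10 genes, 1.07-fold higher in replicate 2 (1.04 to 1.10). All 4 annotated transcripts share a coding sequence of 1416 nt. Cd36-204 held 68.1% and 67.1% of Cd36 TPM and Cd36-201 23.9% and 26.7%. In the annotation used for names these differ in their first exons, and their starts lie 14096 nt apart. Only Cd36-204 has the same length in the deposited tables and in that annotation.

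Cd36 is also a gene of adipocytes, platelets and endothelium. In the adipocyte list, Adipoq had 1 and 0 counts, Plin1 0 and 3, Cfd 0 and 1 and Retn 12 and 18, and Lep and Cidec were at 0 in both. Of the 8 adipocyte list genes, 2 were detected: Fabp4, a fatty acid carrier that endothelium and macrophages also express, at 51.0 and 37.9 TPM, and the nuclear receptor gene Pparg at 2.53 and 2.68 TPM. The list summed to 54.0 and 41.4 TPM. Platelet genes were present: Pf4 stood at 353 and 381 TPM, and 4 of 8 genes of the megakaryocyte and platelet list were higher in each library. All 10 endothelial list genes were detected, against 55.5% of protein-coding genes, and Egfl7 led at 102 and 125 TPM. Of these 10, 9 were higher in replicate 2, against 50.9% of all genes tested. The share of Cd36 that came from any of these cells was not tested.

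Cd47, the do-not-eat-me ligand (chr16:49800533-49915010, plus strand), stood at 443 TPM in replicate 1 and 371 TPM in replicate 2. It was the only 1 of the 10 genes higher in replicate 1, by 1.26-fold (1.24 to 1.29). Sirpa, its receptor on myeloid cells (chr2:129592835-129632228, plus strand), stood at 28.8 and 43.1 TPM and was 1.34-fold higher in replicate 2 (1.28 to 1.41). The level of Cd47 was thus 15.4 times that of Sirpa in replicate 1 and 8.62 times in replicate 2.

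The TPM of Cd47 depends on which transcript its reads were given to. Cd47-202, a transcript of 867 nt in the deposited tables, held 76.2% and 74.4% of the TPM but 32.2% and 30.2% of the counts. Cd47-201, of 5277 nt, held 23.8% and 25.6% of the TPM and 67.8% and 69.8% of the counts. When the counts of every gene were divided by the length of its longest transcript, Cd47 stood at 186 and 162 TPM, or 2.38 and 2.29 times lower than deposited. It remained the highest of the 10, with a level 6.19 and 3.65 times that of Sirpa in replicates 1 and 2. Axl stood at 31.3 and 47.4 TPM on that scale. Gas6, at 30.0 and 48.3 TPM, then stood above Axl and Sirpa in replicate 2. The deposited values of the other 8 genes were 0.833 to 0.996 times their longest-transcript values.

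**Figure D2:**
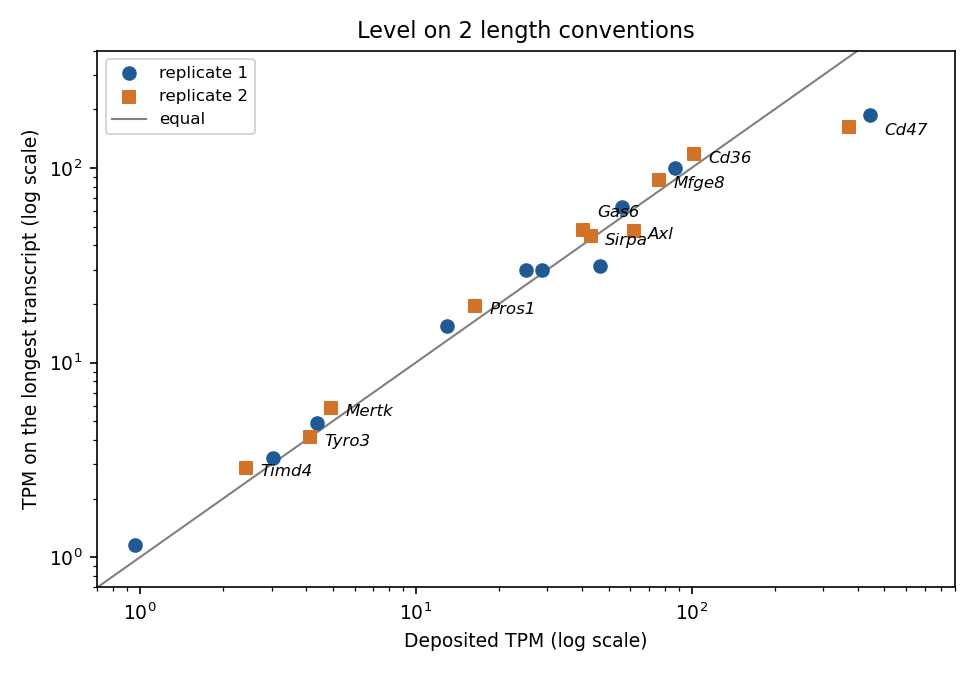
Deposited TPM against TPM computed from the longest transcript for the 10 genes, log axes in TPM, with 1 point per gene and library and the line of equality. Cd47 and Axl lie to the right of the line, by 2.38 and 1.48 times in replicate 1.

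Sirpa is divided among several coding transcripts. Sirpa-204 led with 41.9% and 39.0% of Sirpa TPM, followed by Sirpa-214 with 28.2% and 26.8%. Sirpa-201 carries an insert of 12 nt, encoding 4 residues, at chr2:129627986-129627997 on the plus strand, shown because it separates the full-length forms. Capitals mark the insert and lower case the 24 bases on either side.
Sirpa-201: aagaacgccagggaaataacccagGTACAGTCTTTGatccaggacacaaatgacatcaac
Sirpa-204: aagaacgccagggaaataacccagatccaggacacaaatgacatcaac
Forms with all immunoglobulin-domain exons and no insert held 70.1% and 65.8% of Sirpa TPM, and those with the insert 10.2% and 13.1%. Sirpa-201 had 330 and 597 estimated counts with posterior SDs of 149 and 190, so the division by insert is uncertain. Sirpa-202 skips 2 inner immunoglobulin exons of 318 and 336 nt, together 654 nt or 218 residues, and held 14.2% and 14.6%. In both libraries, then, the form without these exons was present beside the full-length ones. The other 8 transcripts held 5.52% and 6.43%.

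**Figure D3:**
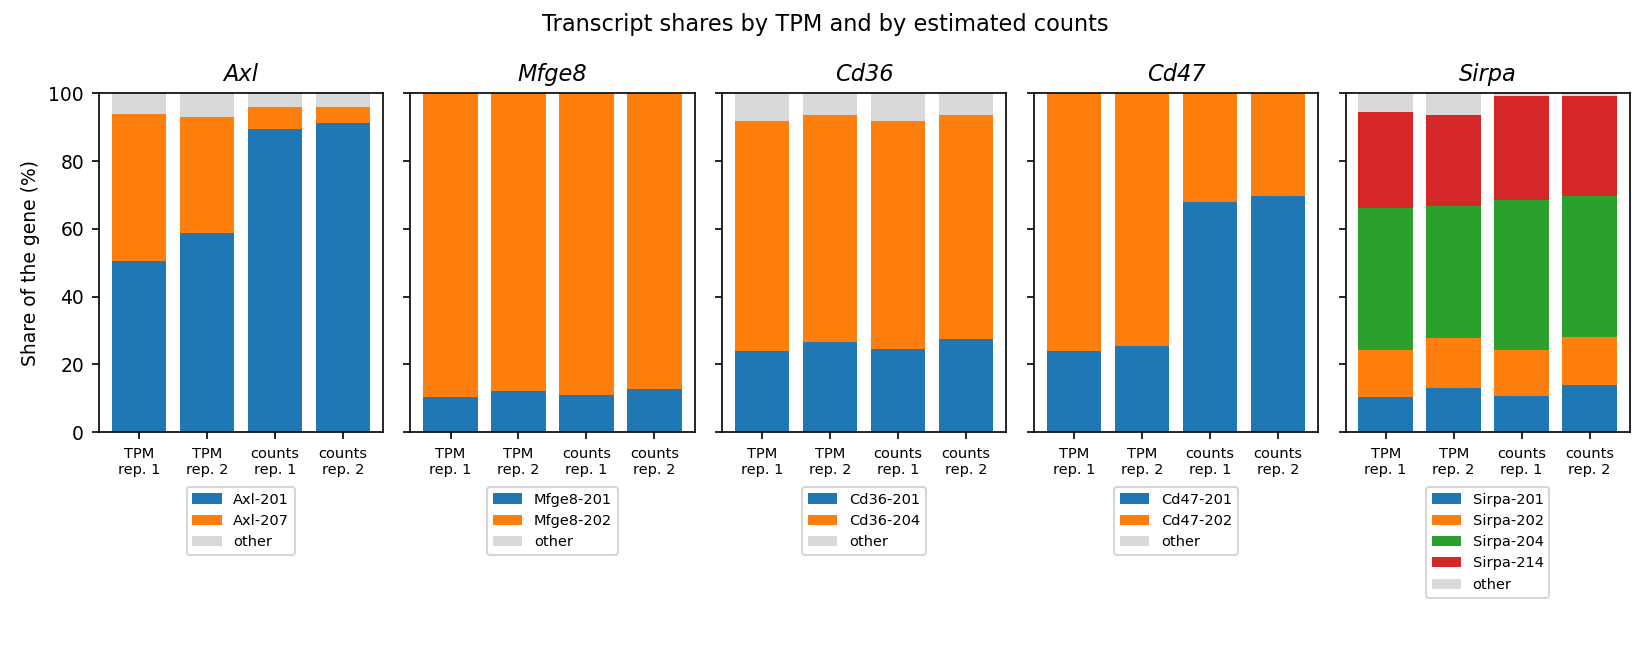
Share of each gene, in percent, held by the annotated transcripts of Axl, Mfge8, Cd36, Cd47 and Sirpa, as stacked bars by TPM and by estimated counts in each library. The shares by TPM and by counts part widely for Cd47 and Axl, where Cd47-202 holds 76.2% of the TPM but 32.2% of the counts in replicate 1.

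Across the 10 genes, 45 transcripts were listed and 18 held at least 5% of their gene's TPM on average. The leading transcript of each of the 10 was the same in both libraries. By estimated counts it differed from that by TPM for Cd47 alone. Of the 45, 38 have the same length in the deposited tables and in the annotation used for names.

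Cd47 and Sirpa work with other inhibitory signals and with phosphatases. Of the 12 matched do-not-eat-me partners, 11 were detected, against 55.5% of protein-coding genes, and 0 were 1.5-fold apart, against 7.11% of all genes tested. Cd24a, the other abundant do-not-eat-me ligand, stood at 810 and 683 TPM and, like Cd47, was higher in replicate 1, by 1.31-fold. Its receptor Siglecg stood at 4.32 and 5.68 TPM. The phosphatase genes Ptpn6 and Ptpn11, which encode the enzymes recruited by Sirpa, stood at 74.0 ± 13.0 and 12.4 ± 0.346 TPM. Skap2, an adaptor bound to Sirpa signalling, stood at 33.1 ± 5.71 TPM, and Qpctl, the enzyme that modifies the Cd47 end bound by Sirpa, at 5.93 ± 0.205 TPM. Pecam1, an inhibitory adhesion molecule that lets living cells detach from phagocytes, stood at 19.2 ± 1.93 TPM, and the kinase gene Fyn at 9.74 and 9.77 TPM. Pirb, a paired inhibitory receptor, stood at 19.1 ± 4.16 TPM. The near-identical copies Sirpb1a, Sirpb1b and Sirpb1c stood at 0.935, 5.81 and 5.96 TPM, and the division of reads among them is uncertain.

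Of the 10 genes, 9 were higher in replicate 2, against 50.9% of the 15506 genes. The median log2 ratio of replicate 1 to replicate 2 was -0.26 for the 10 genes and -0.01 for all genes. Timd4 at -1.16 and Gas6 at -0.54 lay farthest on one side, and Cd47 at 0.34 lay on the other. Cd47 was the only member higher in replicate 1 under all 7 scalings and count settings tried. Genes at least 1.5-fold higher in replicate 2 numbered 706 and those higher in replicate 1 numbered 396. That split was 1075 to 303 with library size alone and 1243 to 267 with the deposited TPM, which moved the median of all genes to -0.11 and -0.14. With spike-in totals, which rest on only 694 and 748 counts in replicates 1 and 2, it was 567 to 466 and the median 0.04. The share of all genes higher in replicate 2 was 66.1%, 70.2% and 43.7% under these 3 scalings, and 9 of the 10 genes were higher there under each. Gas6 crossed the 1.5-fold line with library size alone and with the deposited TPM, at -0.65 and -0.69. Relative to the median of all genes it stood at -0.54 with library size alone and -0.55 with the deposited TPM, as against -0.54 with the main scaling.

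**Figure D4:**
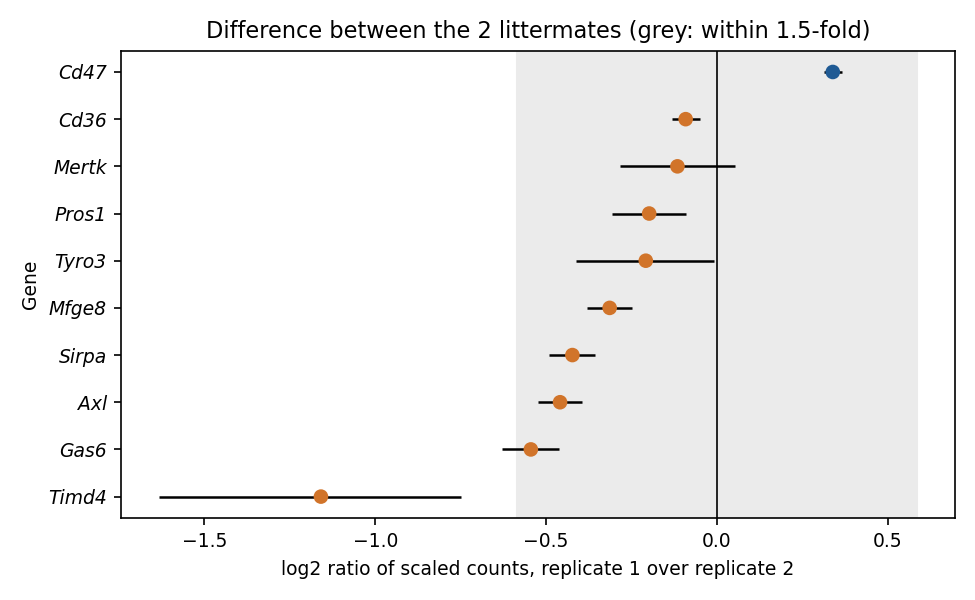
Log2 ratio of replicate 1 to replicate 2 for the 10 genes after TMM scaling, with 95% Clopper-Pearson intervals that cover counting error only, a line at 0 and a grey band for ratios within 1.5-fold. Timd4 lies outside the band at -1.16, and Cd47 alone lies above 0, at 0.34.

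Marker lists differed in direction between the littermates, and 50.9% of all genes tested were higher in replicate 2. The megakaryocyte and platelet list was split, with 4 higher in each library and a median log2 ratio of -0.004. The dendritic list had 4 higher in replicate 1 and 3 in replicate 2, with a median of 0.015. All 12 macrophage markers with enough counts were higher in replicate 2, with log2 ratios from -0.61 to -0.25 and a median of -0.50. Their summed level was 1277 TPM in replicate 1 and 1962 TPM in replicate 2. All 9 erythroid markers were higher in replicate 1, with a median of 0.35, and summed to 2719 and 2399 TPM. The ratio of Cd47, 0.34, lay within the erythroid range of 0.15 to 0.49, and also within the megakaryocyte, endothelial, dendritic and adipocyte ranges. Axl, Gas6, Sirpa and Mfge8 lay within the macrophage range, and Timd4 at -1.16 lay outside it. The mast cell range of -1.24 to 0.04 held Timd4 and every other member that was higher in replicate 2. Axl, Sirpa and Mfge8 also lay within the B lineage range of -0.48 to -0.07, with 8 of 8 markers higher in replicate 2, and the neutrophil range of -0.50 to 0.08, with 8 of 9. Both ranges held Mertk, Tyro3, Pros1 and Cd36 as well, and so did the endothelial and dendritic ranges. Summed levels were 131 and 190 TPM for the B lineage list and 13430 and 19273 TPM for the neutrophil list. All 9 stromal markers were higher in replicate 2, from -0.64 to -0.11 with a median of -0.31, a range that held Axl, Gas6, Sirpa, Mfge8, Mertk, Tyro3 and Pros1. The macrophage marker Vsig4 was at 3 and 0 counts. Fewer cells of a type and less RNA per cell cannot be told apart in bulk RNA, and the part of cell make-up in these ratios was not tested. Pancreas genes were also uneven, with 985 and 339 TPM in sum. Of the 9 with enough counts, 9 were at least 1.5-fold higher in replicate 1, against 2.55% of all genes tested. Mast cell genes, with 825 and 1856 TPM, had 6 of 8 at least 1.5-fold higher in replicate 2, against 4.55%.

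**Figure D5:**
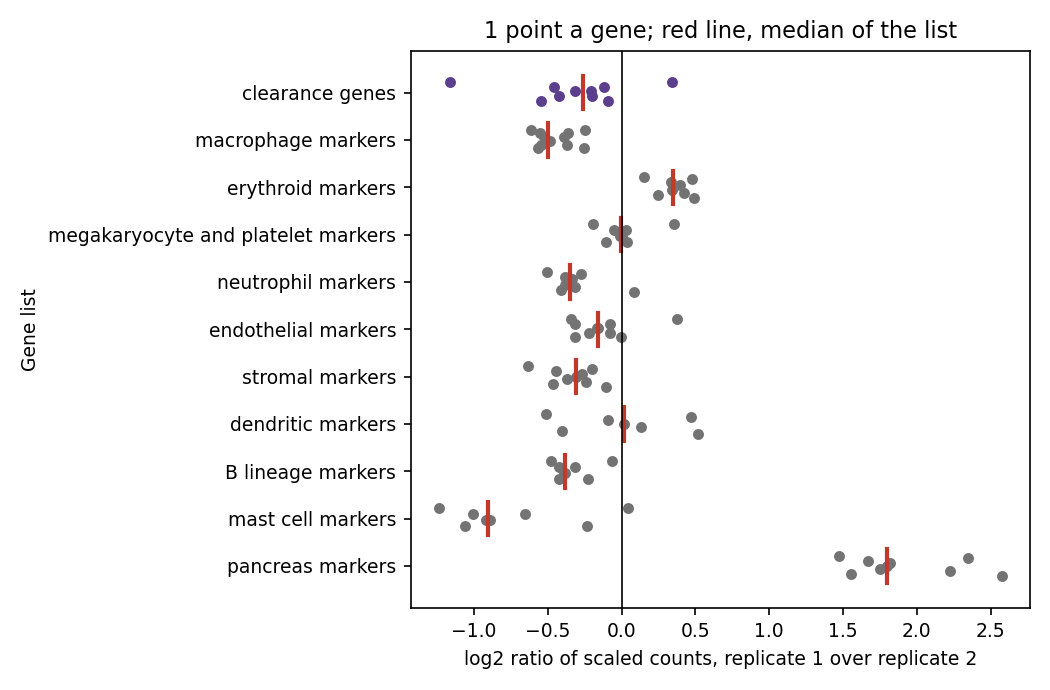
Log2 ratio of replicate 1 to replicate 2 for the 10 clearance genes and the marker lists of cell types, with 1 point per gene and the median of each list as a red line. The macrophage median is -0.50 and the erythroid median 0.35, and the median of the 10 genes is -0.26.

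Counts for the wider pathway lists are read against the shares over all genes: 55.5% of protein-coding genes detected, 7.11% of genes tested 1.5-fold apart and 50.9% higher in replicate 2. Of 23 other engulfment receptors, 18 were detected, led by Stab2, a phosphatidylserine receptor of sinusoidal endothelium, at 76.3 TPM, Scarb1, a lipoprotein and phosphatidylserine receptor, at 47.7 and Cd300lf, a lipid-binding inhibitory receptor, at 38.4. Of the 20 with enough counts, 19 were higher in replicate 2, and 1, Havcr2, was 1.5-fold apart. Itgav, the integrin chain that Mfge8 engages, stood at 28.7 and 41.2 TPM, with its partners at a mean of 8.22 TPM for Itgb3 and 9.32 TPM for Itgb5. The other bridging molecules had 9 of 14 detected, led by Calr at 239, Anxa1 at 232 and C1qb at 110 TPM, and 2 were 1.5-fold apart. These were Apoh and Ptx3, 2.73- and 1.95-fold higher in replicate 1, from 48 and 17 and from 75 and 39 counts.

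Genes of the find-me stage, the signals that draw phagocytes in, had 9 of 10 detected. Sphk1, which makes sphingosine-1-phosphate, led at 80.7 TPM, followed by the receptor genes P2ry6 at 5.81 and 10.2 TPM and S1pr1 at 6.4 and 7.87 TPM. The receptors Cx3cr1 and P2ry6 were 1.76- and 1.58-fold higher in replicate 2. For exposure of phosphatidylserine, 8 of 10 genes were detected and 0 were 1.5-fold apart. The flippase gene Atp8a1 stood at 47.8 TPM, its chaperone Tmem30a at 30.9 and the scramblase gene Ano6 at 13.0. The scramblase gene Xkr8, cleaved in dying cells, stood at 2.77 TPM. Of the engulfment machinery, 12 of 13 genes were detected, with Rac1 at 134, Rhog at 98.9 and Crk at 33.4 TPM, and 0 were 1.5-fold apart.

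The start regions of the genes differed widely in CpG content, a sequence feature that the choice of genes did not use. RefSeq windows of 300 bases on GRCm38.p6, 250 before to 50 after a start, were matched for 9 of the 10 genes, with 2 for Cd47. The median over all 32851 windows was 7 CpG dinucleotides, with quartiles of 3 and 20. The most and least abundant genes of the set are shown, Cd47 at chr16:49855404-49855703 and Timd4 at chr11:46810549-46810848, both on the plus strand, with each CpG in capitals.
Cd47: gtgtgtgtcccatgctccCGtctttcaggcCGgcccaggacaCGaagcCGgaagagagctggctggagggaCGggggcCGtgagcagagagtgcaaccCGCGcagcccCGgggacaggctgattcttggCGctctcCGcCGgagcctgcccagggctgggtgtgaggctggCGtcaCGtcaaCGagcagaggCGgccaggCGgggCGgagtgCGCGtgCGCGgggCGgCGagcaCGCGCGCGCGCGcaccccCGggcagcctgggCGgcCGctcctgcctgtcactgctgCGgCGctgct
Timd4: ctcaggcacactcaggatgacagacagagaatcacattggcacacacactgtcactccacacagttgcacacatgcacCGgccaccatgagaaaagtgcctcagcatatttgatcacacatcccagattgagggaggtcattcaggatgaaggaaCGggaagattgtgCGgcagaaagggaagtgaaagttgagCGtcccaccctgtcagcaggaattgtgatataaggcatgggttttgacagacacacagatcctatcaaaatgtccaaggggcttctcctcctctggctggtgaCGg
The Cd47 window held 35 CpG dinucleotides, percentile 93.0 among all windows, and its second window 36. The Timd4 window held 5, percentile 38.0. Tyro3 with 31 lay high while its level was low, and Cd36 with 3 lay low while its level was high, so the order by CpG was not the order by level. Pros1 held 21, Gas6 and Mfge8 17 each, Mertk 14 and Axl 6. The Cd36 window is not at the start of its leading transcript, Cd36-204. The letters AGATAA, searched on both strands, were in 0 of these windows against 11.2% of all windows, and GAGGAA was in those of Axl and Mfge8 against 28.3% of all windows.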

How the data were processed

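Total RNA of 2 P0 spleens was sequenced, 1 library each. Before deposit the authors assigned reads to GENCODE M4 genes and transcripts on mm10, per the labels and file headers, and deposited the expected counts. The authors also deposited TPM, normalized for length and library total, and each transcript's percent of its gene's abundance, with posterior SDs of the counts. Software versions and the strand of counting are not stated in the labels or headers. Names and positions came from GENCODE M21 (42462 genes matched, 884 not).

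The expected counts of all genes, rounded, were scaled with the TMM method of edgeR 4.0.16 under R 4.3.3 (prior count 2). Shares of genes past a fold were taken over the 15506 genes whose mean count reached 20. Detection needed 1 TPM in both libraries, and a call 1.5-fold. No p-value was computed. Alternatives were DESeq2 1.42.0 size factors, library size, spike-ins, deposited TPM, posterior means, other TPM bases, filters and prior counts, and each library alone. Other steps ran in Python 3.11.15 (pandas 2.3.3, numpy 2.4.6, matplotlib 3.10.9, scipy 1.17.1). The ratio step was tested on simulated data.

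The 10 members and all lists were chosen with earlier results of these data known. Named were all members, the 3 highest genes of each pathway list, those 1.5-fold apart, and the lists of TAM maturation and do-not-eat-me partners. Itgav, Itgb3, Itgb5, Xkr8, Il10, Fabp4, Pparg, Pf4 and the other markers were added after their values were seen. Lilrb4a was unmatched and not analysed here. No source used here names molecular identifiers, so copies of the same molecule could not be told apart from separate molecules. The intervals take rounded counts as independent and cover counting error only. They would be too narrow if such copies were counted.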

Additional observations from a re-analysis of the deposited data

How the results depend on the processing

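With 2 libraries and 1 group, the spread is that between 2 littermates and no test was possible. No paired analysis was possible because there is a single group. Depth limited Timd4 most, with 63 and 149 counts. The summed TPM of the 10 genes was 840 when TPM was rescaled to protein-coding genes, 976 without adult globins and 502 with longest-transcript TPM, the last chosen after seeing the data. Members at least 1.5-fold apart numbered 2 with library size only and 2 with the deposited TPM, where Gas6 joined Timd4, and 1 under the other scalings, filters and prior counts tried. All 10 genes were detected when TPM was rescaled to protein-coding genes, without adult globins, with longest-transcript TPM and at 0.5 TPM. Taking 1 library alone, the number detected ranged from 9 to 10, the summed TPM from 707 to 722 and the genes with the same leading transcript from 10 to 10. Of the 10 single levels, 9 moved by more than 1 SD without adult globins, 4 when rescaled to protein-coding genes, 5 with longest-transcript TPM and 1 with posterior mean TPM. That 1 was Tyro3, at 4.36 TPM against 3.58 TPM. The sign of the ratio between the littermates was the same under every scaling for each of the 10 genes, while the order of Gas6 against Axl and Sirpa in replicate 2 and the ratio of ligands to receptors turned with longest-transcript TPM.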

Other observations

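Genes that act after uptake were measured as well. All 13 genes of phagosome maturation were detected, and 0 were 1.5-fold apart, near the 7.11% of all genes tested that were. Map1lc3b, which is attached to phagosomes holding dead cells, stood at 196 TPM, the lysosomal membrane gene Lamp1 at 146 and Rab7, a GTPase of late endosomes, at 95.6. Of 13 genes of the response to engulfed cells, 11 were detected, and 0 of the 12 with enough counts were 1.5-fold apart. Ucp2, a mitochondrial carrier, stood at 1035 TPM, the sterol receptor gene Nr1h2 at 43.8 and the glucose transporter gene Slc2a1 at 24.8. Il10, an anti-inflammatory cytokine, was not among those 12 and was at 0 counts in both libraries, which allows up to 0.0906 and 0.0933 CPM.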
